A study of Mus musculus with 4 samples.

Results

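The 33 chemokine ligand genes of the mouse were described in open chromatin maps of CD4+ T cells during induction of regulatory T cells, as listed peaks of ATAC-seq, an assay in which a transposase cuts accessible DNA. Members were taken by name from GENCODE vM21 on mm10, and all 33 were found. The background was the 21951 protein-coding genes, which hold every member but Cxcl11. A peak was counted for a gene if it shared at least 1 base with the 1 kb on either side of any of its transcript starts, and a region if it lay within 20 kb of the gene. Peaks of the libraries that overlapped were merged into 93679 regions, of which 112 lay within 20 kb of a chemokine gene.

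Naive CD4+ T cells were sorted by FACS from the spleens of male C57BL/6 mice aged 7 weeks, as CD62L high, CD44 low and CD25-. The purity of the sort is not given. Every culture received anti-CD3 at 5 µg/ml, anti-CD28 at 1 µg/ml, TGF-β1 at 5 ng/ml and IL-2 at 10 ng/ml for 48 h, which is the iTreg polarization. Cultures named iTreg+PBS received PBS, and those named iTreg+IL-4 received IL-4 at 15 ng/ml. There were 2 libraries in each group, and the study calls them independent pools, so the values hold the spread between pools and not between animals. The files held 77064 and 56645 peaks for the iTreg+PBS libraries, and 78670 and 67743 for the iTreg+IL-4 libraries, with no read totals, so the depth is unknown. All 8 CD4 T cell marker genes (Cd4, Cd3d, Cd3e, Cd3g, Cd28, Cd5, Lck and Zap70) had a promoter peak in every library. Of the genes that mark myeloid and NK cells, Lyz2, Csf1r, Adgre1 and Ncr1 had none, while others did. Of the B cell genes, Cd79a had no promoter peak, Cd79b had a peak in iTreg+IL-4 replicate 2 and Ms4a1 in every library but iTreg+PBS replicate 1. Pax5 had a peak in all 4 libraries, at ranks (the percent of stronger peaks in the list) of 15.6 and 18.1 in iTreg+PBS and 12.3 and 15.0 in iTreg+IL-4. Of the 6 myeloid markers, 3 and 2 had a promoter peak in iTreg+PBS and 3 and 3 in iTreg+IL-4. Cd14 and Cd68 had a peak in every library, and Itgam in every library but iTreg+PBS replicate 2. Cd14 ranked 47.4 and 58.8 in iTreg+PBS and 40.2 and 49.7 in iTreg+IL-4, and Cd68 27.0 and 54.8, and 22.3 and 42.1. Cd4 itself was weaker, at 66.3 and 88.0, and 65.5 and 72.3.

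Chemokines are small secreted proteins that attract leukocytes through G protein-coupled receptors, and they are named C, CC, CXC and CX3C after the spacing of their first cysteines. Many lie side by side in gene clusters. T cells make some of them after antigen receptor signals and cytokines, whereas the receptors set where the cell goes. IL-4 signals through STAT6, and in several cell types it is a known inducer of Ccl17 and Ccl22, the ligands of CCR4.

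Promoter sequences of 7 members are shown because they represent the cases met below. They are 250 bases upstream of the RefSeq start (GRCm38, which is mm10), written 5′ to 3′ on the gene's strand and ending just before the start. The RefSeq promoter table matched 23 of the 33 members, all but Ccl2, Ccl4, Ccl5, Ccl7, Ccl11, Ccl24, Cxcl5, Cxcl11, Cxcl16 and Cxcl17. Capitals mark matches, on either strand, to the kappaB consensus, the AP-1 site TGANTCA, a pair of IRF half-sites GAAANNGAAA, a TATA box TATAAA, the STAT6-type palindrome TTCNNNNGAA, and a control palindrome TTCNNNGAA with a shorter spacer. Among the members, Cxcl10 had the strongest peak that lay at the start of no other gene, at chr5:92348890-92349139, minus strand.
Cxcl10: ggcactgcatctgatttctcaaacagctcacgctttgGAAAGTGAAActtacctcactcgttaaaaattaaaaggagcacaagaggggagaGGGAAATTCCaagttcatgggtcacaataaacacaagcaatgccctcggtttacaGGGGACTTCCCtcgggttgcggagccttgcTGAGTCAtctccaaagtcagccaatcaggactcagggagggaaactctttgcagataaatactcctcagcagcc
Cxcl2 (chr5:90903649-90903898, plus strand) and Cxcl3 (chr5:90785851-90786100, plus strand) are paralogs with weak peaks in every library, and their capitals hold the same kappaB letters.
Cxcl2: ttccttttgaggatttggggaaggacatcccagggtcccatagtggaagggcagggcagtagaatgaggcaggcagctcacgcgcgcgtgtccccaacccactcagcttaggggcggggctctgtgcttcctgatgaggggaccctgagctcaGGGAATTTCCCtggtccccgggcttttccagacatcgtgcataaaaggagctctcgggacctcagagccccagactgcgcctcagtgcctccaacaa
Cxcl3: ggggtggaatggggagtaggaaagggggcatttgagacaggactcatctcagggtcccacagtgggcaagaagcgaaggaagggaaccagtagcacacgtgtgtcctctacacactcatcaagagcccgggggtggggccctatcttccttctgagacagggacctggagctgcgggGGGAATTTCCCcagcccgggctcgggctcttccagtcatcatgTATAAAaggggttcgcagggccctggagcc
Ccl3 (chr11:83649379-83649628, minus strand) is shown as the promoter with the widest spread between libraries, and Xcl1 (chr1:164935523-164935772, minus strand) as the promoter with the largest difference between groups whose ranks did not overlap. Neither window held a match.
Ccl3: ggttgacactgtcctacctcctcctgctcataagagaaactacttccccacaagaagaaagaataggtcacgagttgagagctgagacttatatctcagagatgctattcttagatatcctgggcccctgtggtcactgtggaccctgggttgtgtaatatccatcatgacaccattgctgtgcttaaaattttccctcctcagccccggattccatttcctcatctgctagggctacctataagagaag
Xcl1: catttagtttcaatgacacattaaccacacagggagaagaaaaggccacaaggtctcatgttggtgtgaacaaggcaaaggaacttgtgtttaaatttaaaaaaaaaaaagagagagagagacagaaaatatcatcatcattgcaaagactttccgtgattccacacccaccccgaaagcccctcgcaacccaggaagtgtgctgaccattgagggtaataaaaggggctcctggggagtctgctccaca
Ccl1 (chr11:82179813-82180062, minus strand) had no promoter peak although regions around it were open, and Ccl17 (chr8:94810203-94810452, plus strand), also without a peak, had both the STAT6-type and the control palindrome.
Ccl1: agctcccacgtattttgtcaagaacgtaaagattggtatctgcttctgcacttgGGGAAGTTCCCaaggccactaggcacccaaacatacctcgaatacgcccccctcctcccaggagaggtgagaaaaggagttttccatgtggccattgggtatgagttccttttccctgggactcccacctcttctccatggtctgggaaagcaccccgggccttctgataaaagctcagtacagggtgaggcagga
Ccl17: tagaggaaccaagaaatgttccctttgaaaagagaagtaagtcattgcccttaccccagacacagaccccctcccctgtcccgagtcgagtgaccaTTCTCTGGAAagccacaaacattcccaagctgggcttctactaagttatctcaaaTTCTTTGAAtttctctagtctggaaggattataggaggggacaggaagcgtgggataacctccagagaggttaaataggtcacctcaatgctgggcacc

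In every library, a smaller share of the chemokine genes than of all protein-coding genes had an open promoter. In a culture measured in bulk, fewer cells with the site open and less opening per cell cannot be told apart. Of the 33 members, 13 and 11 had a promoter peak in the iTreg+PBS libraries and 13 and 12 in the iTreg+IL-4 libraries. These were 39.4% and 33.3% of the members without IL-4, and 39.4% and 36.4% with it. Over all protein-coding genes the shares were 64.1% and 60.8% without IL-4, and 64.6% and 62.9% with it. The mean was 12 ± 1.41 members (SD, n = 2) in iTreg+PBS and 12.5 ± 0.707 (SD, n = 2) in iTreg+IL-4, and the difference of 0.5 was smaller than the spread between libraries. With lists cut to equal length the counts were 9 and 11 in iTreg+PBS and 8 and 8 in iTreg+IL-4, and the difference was -2, as it was with the upper 50% of each list. In lists of equal length 6 members were called in all libraries (11 in the full lists), against 12791 of the 21951 protein-coding genes (13148 in the full lists). Shares of protein-coding genes in single libraries are not given at these cuts. No test over the list is given, since the members were chosen as a named family with results of these data known.

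Across the libraries, 11 members were called in all 4 (33.3%, against 59.9% of protein-coding genes), 13 in at least 1 (background 66.3%), and 20 in none (background 33.7%). No member was listed in each iTreg+IL-4 library but in no iTreg+PBS library, a pattern seen in 0.346% of protein-coding genes, nor in the opposite pattern, seen in 0.0683%. Without iTreg+PBS replicate 1, Cxcl16 would count as called only with IL-4, since it had a peak in that library and in both iTreg+IL-4 libraries.

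**Figure D1:**
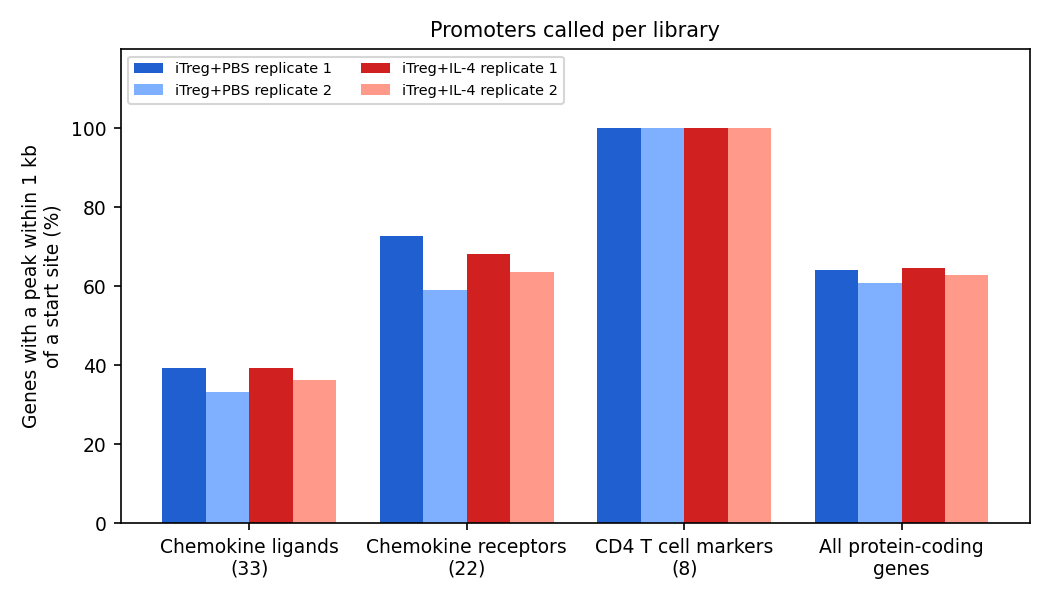
Bars give the share of genes with a peak within 1 kb of a start site (%) in each of the 4 libraries, for 33 chemokine ligands, 22 chemokine receptors, 8 CD4 T cell markers and all 21951 protein-coding genes. The ligands sit between 33.3% and 39.4%, below all coding genes at 60.8% to 64.6%, and the CD4 T cell markers are at their full number in each library.

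To compare peaks without depth, each was given a rank, the percent of peaks in the same library with a higher −log10 q, so that 0 is the strongest peak and 100 the weakest. Where several peaks lay at a promoter, the strongest was used. The median rank of the called chemokine promoters was 50.9 and 74.4 in the iTreg+PBS libraries and 61.6 and 69.8 in the iTreg+IL-4 libraries. For protein-coding promoters it was 10.8 and 12.3 without IL-4, and 10.8 and 11 with it. The open chemokine promoters were thus mostly in the weaker part of each list, with Ccl25 and Cxcl10 as the exceptions in all 4 libraries.

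**Figure D2:**
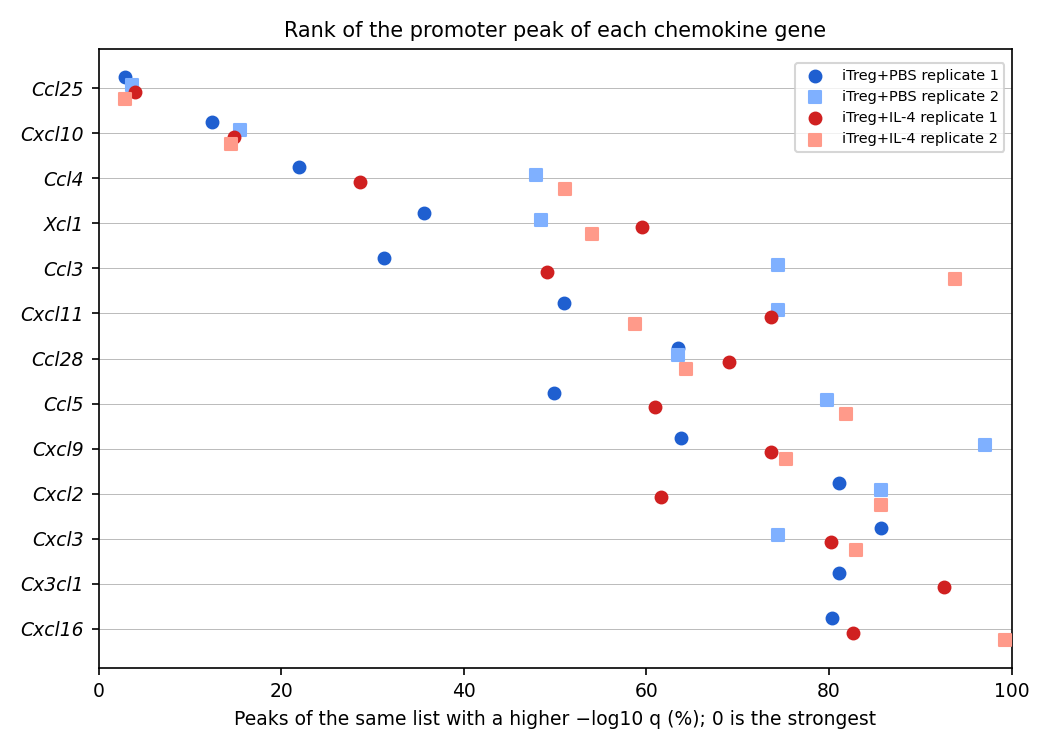
Each row is a chemokine gene with a promoter peak in at least 1 library, and each point a library (circles for replicate 1, squares for replicate 2, blue for iTreg+PBS, red for iTreg+IL-4). The horizontal axis is the percent of peaks in the same list with a higher −log10 q. Ccl25 and Cxcl10 stay below 16 in all 4 libraries, while the circles of Ccl3, Ccl4 and Ccl5 lie left of the squares in both groups.

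All 3 ligands of CXCR3, the receptor of Th1 and effector T cells, had a promoter peak in every library, as had 8 other members. With lists cut to equal length Cxcl10 kept this call, and Cxcl9 and Cxcl11 did not. These genes are induced by interferon and lie within one cluster on chromosome 5. The Cxcl10 peak ranked 12.4 and 15.5 in iTreg+PBS and 14.8 and 14.4 in iTreg+IL-4, with −log10 q values of 203 and 89.3, and 151 and 140. The groups overlapped and differed by 0.68 rank points, with means of 14.0 ± 2.18 and 14.6 ± 0.268 (SD, n = 2 each). With lists cut to equal length they did not overlap, at 16.9 and 15.5 in iTreg+PBS and 20.6 and 17.3 in iTreg+IL-4, a difference of 2.74 rank points. The peak covered the start and was 387 to 471 bases wide, and in all 4 libraries it spanned the IRF pair, kappaB and AP-1 letters printed above. The Cxcl11 peak (chr5:92363188-92363509 over the libraries) ranked 50.9 and 74.4 in iTreg+PBS, and 73.6 and 58.8 in iTreg+IL-4. The ranks overlapped widely, and the peak lay also within 1 kb of a start of Gm2673. GENCODE lists Cxcl11 as a polymorphic pseudogene, so it is not among the protein-coding background. The Cxcl9 peak (chr5:92327337-92327655) ranked 63.8 and 97.1 in iTreg+PBS, and 73.6 and 75.3 in iTreg+IL-4. It lay 423 to 457 bases inside the gene from the start and never covered it.

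Of the inflammatory CC chemokines of the MIP group, several of which are made by activated T cells and NK cells, Ccl3, Ccl4 and Ccl5 were called in all libraries, and Ccl6 and Ccl9 in none. The Ccl4 peak (chr11:83662121-83662723) ranked 22 and 47.9 in iTreg+PBS and 28.7 and 51.0 in iTreg+IL-4. The Ccl3 peak ranked 31.2 and 74.4 in iTreg+PBS, and 49.1 and 93.8 in iTreg+IL-4. The Ccl5 peak (chr11:83530381-83530738) ranked 49.8 and 79.8 without IL-4, and 60.9 and 81.9 with it. In each of these genes the replicate 1 libraries of both groups were stronger than both replicate 2 libraries, and the groups overlapped. With lists cut to equal length those of Ccl4 still overlapped. Those of Ccl5 did not, at 67.8 and 79.8 in iTreg+PBS and 84.6 and 97.9 in iTreg+IL-4. The group means of Ccl3 were 52.8 ± 30.5 and 71.4 ± 31.6 (SD, n = 2 each), a difference of 18.6 rank points. It was -2.97 without iTreg+PBS replicate 1 and -3.74 without iTreg+IL-4 replicate 2, and with lists cut to equal length Ccl3 was no longer called in all libraries. Between libraries of the same number Ccl3 was weaker with IL-4 by 17.9 and 19.4 rank points, Ccl4 by 6.67 and 3.15, and Ccl5 by 11.1 and 2.13. The labels do not say that a shared number marks a shared preparation, and with 2 libraries a group these differences were not tested. Over the 11 members called in all libraries, 5 had this order by replicate number (45.5%), against 44.3% of protein-coding promoters. The other members of the 5 were Cxcl2 and Cxcl9.

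Markers of CD8 T cells and NK cells, which are known to make Ccl3, Ccl4 and Ccl5, were also listed in the same libraries. Of the CD8 markers, Cd8b1 had a promoter peak in every library and Cd8a only in the replicate 1 libraries, giving 2, 1, 2 and 1 of 2 genes in iTreg+PBS replicates 1 and 2 and iTreg+IL-4 replicates 1 and 2. Of the NK markers, 1, 1, 2 and 1 of 3 were called, with Ncr1 in none. The Klre1 peak ranked 25.8 and 84.9 in iTreg+PBS and 33.8 and 50.7 in iTreg+IL-4, again stronger in both replicate 1 libraries. The Cd8b1 peak had the opposite order, at 38.8 and 31.5 in iTreg+PBS and 37.7 and 35.2 in iTreg+IL-4. The sort was for CD4+ T cells, without a stated purity, and the part of other lymphocytes in the Ccl3, Ccl4 and Ccl5 values was not tested.

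Xcl1 encodes lymphotactin, the C chemokine that attracts cross-presenting dendritic cells through XCR1. Its peak ranked 35.7 and 48.5 in iTreg+PBS, and 59.5 and 54.1 in iTreg+IL-4. Both libraries without IL-4 were stronger than both with it. The means were 42.1 ± 9.03 and 56.8 ± 3.83 (SD, n = 2 each), a difference of 14.7 rank points with an exact two-sided permutation p of 0.333, the smallest that 2 libraries against 2 allow. The −log10 q was 46.5 and 16 without IL-4 and 15.8 and 19.0 with it. With a library left out the difference in rank was 8.33 to 21.1, and its sign could not change since the groups did not overlap. Cx3cl1, the membrane-bound ligand of CX3CR1, had a peak only in the replicate 1 library of each group, at ranks 81.1 and 92.6.

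Among the CC chemokines of mucosa, skin and lymphoid organs, Ccl25 and Ccl28 were called in every library and Ccl19 and Ccl20 in none. The Ccl25 peak (chr8:4324625-4325700) was the strongest of all, at ranks of 2.89 and 3.61 in iTreg+PBS and 4.01 and 2.91 in iTreg+IL-4. It also lay within 1 kb of a start of Elavl1, a broadly expressed RNA-binding protein gene, so the peak cannot be assigned to Ccl25. Its window was unlike the other members in base composition, with 52 CpG dinucleotides in the 300 bases searched (250 upstream and 50 downstream of the start), the highest of the 23 in the promoter table. The Ccl28 peak (chr13:119649094-119649795) ranked 63.5 and 63.5 in iTreg+PBS, and 69.1 and 64.3 in iTreg+IL-4, which did not overlap but were apart by only 3.21 rank points on average (exact two-sided permutation p = 0.333). It lay at an internal start of a non-coding transcript, 25.6 kb downstream of the coding start, and with coding transcripts alone Ccl28 had no promoter peak.

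Of the CXC ligands of CXCR2, which attract neutrophils, Cxcl2 and Cxcl3 were called in every library, and Cxcl1, Cxcl5 and Cxcl15 in none. Neither Cxcl2 nor Cxcl3 kept the call in every library with lists cut to equal length. The Cxcl3 peak ranked 85.6 and 74.4 in iTreg+PBS and 80.2 and 83.0 in iTreg+IL-4. The Cxcl2 peak ranked 81.1 and 85.7 without IL-4, and 61.6 and 85.6 with it. In the replicate 1 libraries it reached over the start, and in the replicate 2 libraries it ended 653 and 475 bases upstream of it. All were among the weaker peaks of their lists, and for both genes the groups overlapped.

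Among the other CXC members, Cxcl12, Cxcl13, Cxcl14 and Cxcl17 had no promoter peak. Cxcl16, a ligand of CXCR6 that exists in a membrane-bound form, was called in 3 libraries, at ranks of 80.3 in iTreg+PBS replicate 1 and 82.6 and 99.3 in iTreg+IL-4. That peak lay within 1 kb of a start of Zmynd15 too. In iTreg+PBS replicate 2, which has the shortest list, none was listed.

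None of the 7 members of the group on chromosomes 5 and 11 that attract monocytes, eosinophils and, for Ccl1, CCR8+ T cells had a promoter peak: Ccl1, Ccl2, Ccl7, Ccl8, Ccl11, Ccl12 and Ccl24. Ccl17 and Ccl22 also had none in any library, with or without IL-4. A missing peak says that the site was not listed at these depths and not that it was closed.

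Of the 11 promoters called in all libraries, none was stronger in both iTreg+IL-4 libraries than in both iTreg+PBS libraries, an order seen in 20% of protein-coding promoters. The opposite order was seen in 2 members, Xcl1 and Ccl28, and in 5.61% of protein-coding promoters. The ranks of the other 9 overlapped between the groups. With lists cut to equal length Xcl1 kept the order of being stronger without IL-4, and Cxcl10 and Ccl5 gained it. The ranks of Ccl28, Ccl4 and Ccl25 overlapped. Over all regions called in all such lists, 12.5% had this order. The median difference, iTreg+IL-4 minus iTreg+PBS, was 3.21 rank points over the members and -0.66 over protein-coding genes, and 9 of the 11 had a weaker mean rank with IL-4, as had 27.2% of protein-coding promoters. This direction rested on iTreg+PBS replicate 1: without that library the median was -2.97 (-1.59 over protein-coding genes) and 3 of the 11 were weaker with IL-4 (19.0% of protein-coding promoters). Without iTreg+IL-4 replicate 2 the median was 0.23, with 6 of 11. With lists cut to equal length it was 11.5 over the 6 members then called in all libraries, all 6 weaker with IL-4, and 0.10 over protein-coding genes, of which 54.2% were weaker. Ranked among shared regions only, it was 6.08 over the members and 0.12 over protein-coding genes, and the difference of Xcl1 was 25.2 and 22.4 under these rankings.

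The windows of 20 kb around the 33 genes merged into 20 stretches covering 1342 kb. Of the 112 regions in them, 51 were called in all libraries (45.5%, background 51.0%), and 28 in a single library (25%, against 21.6% of all regions). Among the 51, 11 lay at a start of a member, 7 only at starts of other genes and 33 at neither. A member had a median of 3 regions in its window against 5 for protein-coding genes, but the members were shorter, with a median length of 4118 against 17403 bases. Per 100 kb of window the medians were 6.96 and 6.81 regions. No region lay within 20 kb of Ccl8, Ccl12 or Cxcl12.

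By library, 92 and 58 of the regions were called in iTreg+PBS and 92 and 71 in iTreg+IL-4. Peaks there added up to 39859 and 24336 bases in iTreg+PBS and to 41184 and 31497 bases in iTreg+IL-4. The means of 32098 ± 10976 and 36341 ± 6850 bases (SD, n = 2 each) differed by 4243 bases, less than the spread. The same sums were 0.0981% and 0.0831% of all bases in peaks in iTreg+PBS, and 0.0979% and 0.0876% in iTreg+IL-4, so that the libraries with longer lists held more near the chemokine genes also as a share. Leaving out iTreg+PBS replicate 2 or iTreg+IL-4 replicate 1 turned the difference to -3518.5 or -600.5 bases.

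Just 1 of the 112 regions was listed in each iTreg+IL-4 library but in no iTreg+PBS library (0.893%, background 2.60%), and none in the opposite pattern (background 0.699%). That region, chr13:119613211-119613752, lay 10.3 kb upstream of Ccl28 at a start of Gm48265, and ranked 99.5 and 87.4, near the end of both lists. These counts depended on single libraries. With iTreg+PBS replicate 1 left out, 13 regions were called only with IL-4 and 2 only without it, and with iTreg+PBS replicate 2 left out the counts were 1 and 11. Leaving out iTreg+IL-4 replicate 1 gave 5 and 3, and leaving out iTreg+IL-4 replicate 2 gave 12 and 0.

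In the 51 regions called in all libraries, both iTreg+IL-4 ranks were stronger in 10 (19.6%, background 19.7%), both iTreg+PBS ranks in 5 (9.80%, background 5.18%), and 36 overlapped. With lists cut to equal length, 40 regions were called in all libraries, with 5 stronger with IL-4 (12.5%, background 14.0%) and 6 stronger without it (15%, background 12.5%). The median difference was -2.74 rank points, against -2.05 over all regions called in all libraries. By replicate number, both replicate 1 libraries were stronger in 27 (52.9%, background 50.4%). At Ccl5 and at the Ccl3 and Ccl4 pair all 7 regions called in every library had this order, the promoters included, while at Ccl25 and Xcl1 none of 5 and none of 2 did. The stretch of 5 members from Ccl2 to Ccl8 on chromosome 11, 121 kb long, held 1 region, and that was not called in all libraries.

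**Figure D3:**
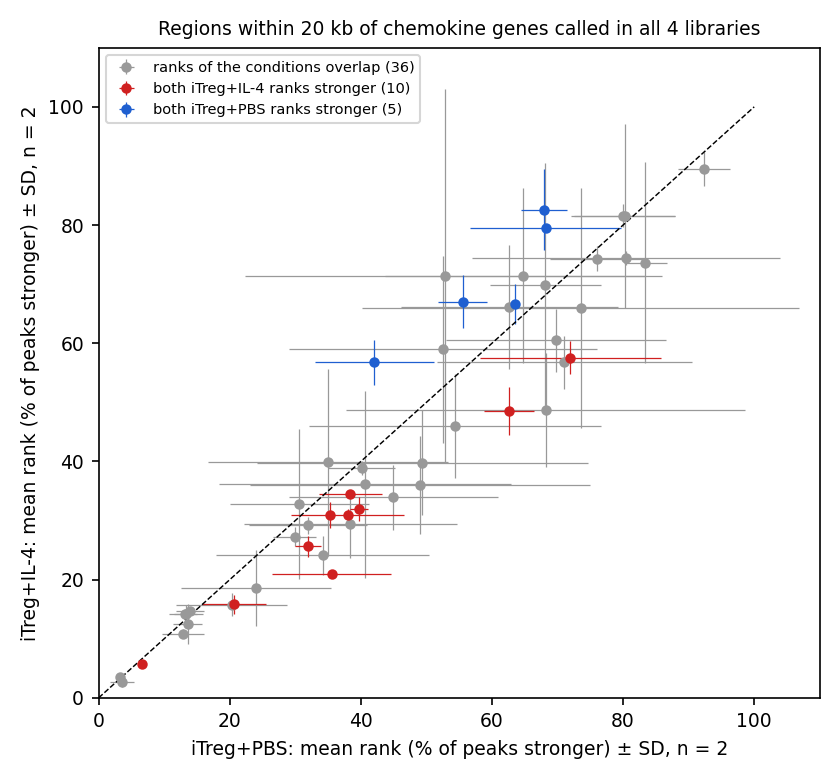
Each point is 1 of the 51 regions within 20 kb of a chemokine gene called in all libraries, with its mean rank in iTreg+PBS across and in iTreg+IL-4 up (percent of peaks stronger), error bars of 1 SD with n = 2, and a dashed line of equality. The 10 red points, where both iTreg+IL-4 ranks were stronger, lie below the line, the 5 blue points above it, and the bars of most of the 36 grey points cross it.

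Among regions away from starts, the strongest by its weakest library lay 4.8 kb upstream of Cxcl10, within Art3, at chr5:92353363-92354010. Its ranks were 10.6 and 15.1 in iTreg+PBS and 10.3 and 11.4 in iTreg+IL-4, close to those of the Cxcl10 promoter and overlapping between groups. With lists of equal length both iTreg+IL-4 ranks were slightly stronger, at 14.4 and 13.7 against 14.5 and 15.1 in iTreg+PBS. The centre of the region, chr5:92353587-92353786 on the plus strand, is printed because it held kappaB letters, as the promoter did, and the control palindrome.
Cxcl10 upstream region: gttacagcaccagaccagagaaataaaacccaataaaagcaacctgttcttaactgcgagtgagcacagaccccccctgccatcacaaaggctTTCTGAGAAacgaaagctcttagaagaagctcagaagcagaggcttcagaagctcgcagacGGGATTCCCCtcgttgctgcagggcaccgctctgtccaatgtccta
The other regions among the 5 strongest, ordered by their weakest rank over the libraries, lay at gene starts. They were the Ccl25 and Elavl1 peak, the start of Med11 near Cxcl16 with ranks of 2.01 to 4.82, that of Lipe near Cxcl17 with 5.50 to 6.88, and that of Sdad1 near Cxcl9 with 11.9 to 14.5. In the Cxcl9, Cxcl10 and Cxcl11 stretch, 9 of 11 regions were called in all libraries.

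**Figure D4:**
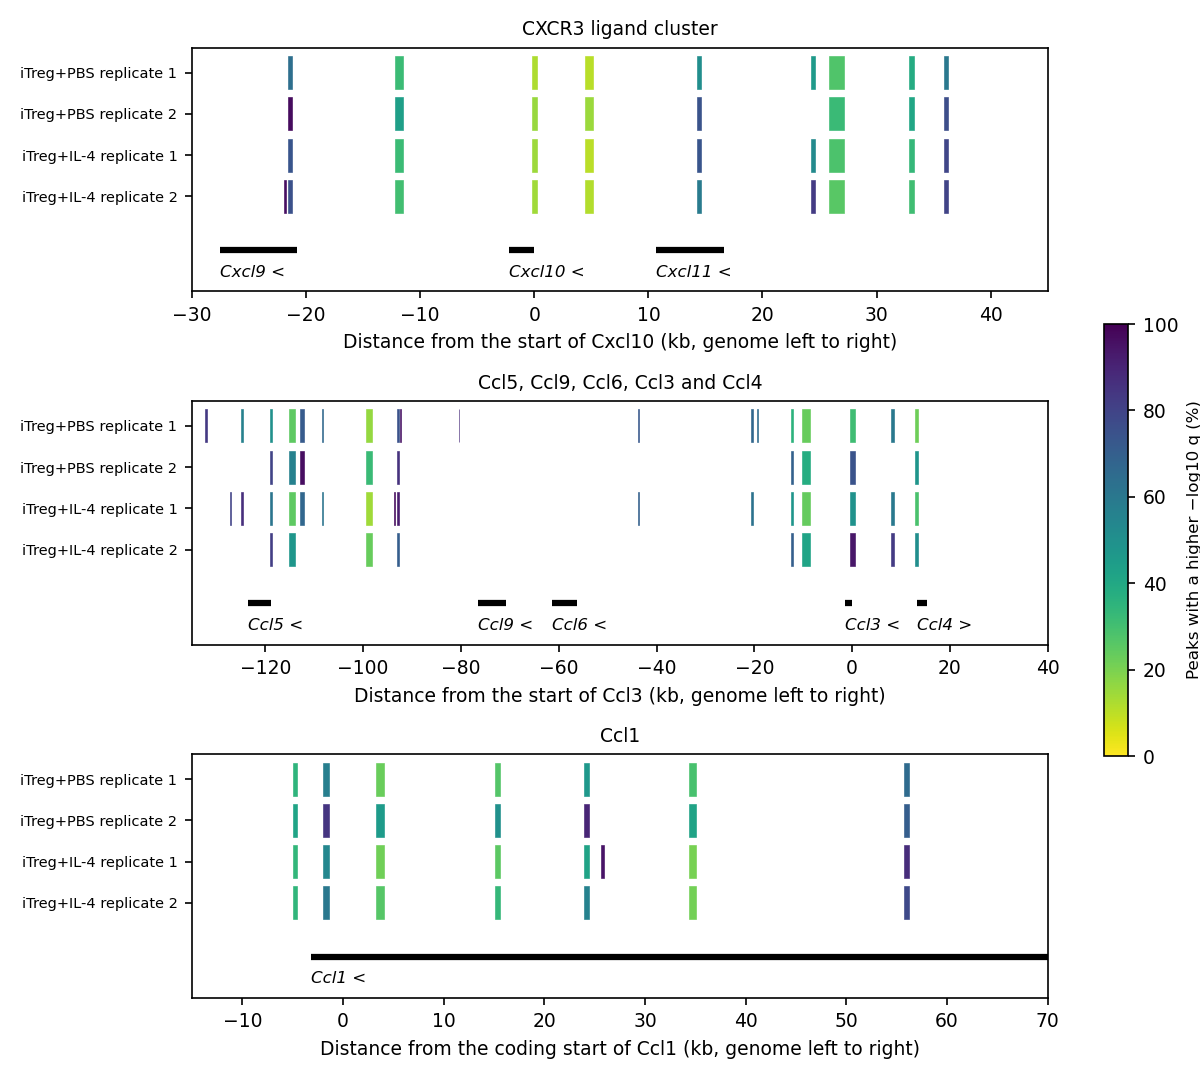
Rows are the 4 libraries, and boxes the merged regions within 20 kb of a member in which that library had a peak, to scale in kb from the start named on the axis and coloured by rank (percent of peaks with a higher −log10 q, yellow for strong and violet for weak). Black bars are genes, with arrows for direction, and the Ccl1 record runs on past the right edge. The boxes at 0 and near 5 kb in the upper panel are the Cxcl10 promoter and its upstream region, and the middle panel has more and lighter boxes in the replicate 1 rows.

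Ccl1, the ligand of CCR8, had no promoter peak but 7 of the 10 regions in its window were called in all libraries. Its GENCODE record runs from a distal start at chr11:82305690, so that 129034 bases count as the gene, and 6 of the 7 lay in an exon or intron of that record. A region 34.7 kb upstream of the coding start, chr11:82214183-82214855, ranked 29.1 and 42.0 in iTreg+PBS and 20.6 and 21.5 in iTreg+IL-4. Another, 4.7 kb downstream of the coding start at chr11:82174883-82175284, ranked 35.0 and 41.8 without IL-4, and 34.3 and 34.7 with it. Both were stronger in each iTreg+IL-4 library than in either iTreg+PBS library. The first kept this order with lists of equal length and the other overlapped. The region 55.9 kb upstream at chr11:82235488-82235988, had the opposite order, with 65.4 and 70.4 against 87.5 and 77.8, and was not called in all lists of equal length. With the window set at 2 kb from a start, a region 1.7 kb inside the gene made Ccl1 count as called in all libraries, and Cxcl17 likewise.

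The CCR4 ligands Ccl17 and Ccl22 share a stretch on chromosome 8 with Cx3cl1, with 12 regions, 4 of them found in every library. The region 7.9 kb upstream of Ccl17 ranked 33.7 and 56.3 in iTreg+PBS and 30.0 and 37.8 in iTreg+IL-4, with overlap. With lists of equal length it was stronger in both iTreg+IL-4 libraries, at 41.7 and 45.2 against 45.8 and 56.3 in iTreg+PBS. The region 2.5 kb downstream of its start ranked 52.9 and 58.2 without IL-4, and 63.9 and 70.3 with it, stronger without IL-4 in each library, also with lists of equal length. At Ccl28, an intronic region 8.1 kb inside the gene ranked 11.5 and 15.2 in iTreg+PBS and 13.0 and 15.2 in iTreg+IL-4, far stronger than the internal start. Of the 6 regions at Ccl28 called in all libraries, 2 were stronger in both iTreg+IL-4 libraries, unlike the internal start. They lay 16.9 and 37.9 kb downstream of the coding start, and the differences were -14.4 and -14.0 rank points. In lists of equal length both overlapped, and the region at 8.1 kb was stronger in both iTreg+PBS libraries. At Ccl25, 3 of the 5 regions called in all libraries were stronger in both iTreg+IL-4 libraries (19.7% of all regions called in all libraries had this order), at 19.2 kb and 11.5 kb upstream of the start, within Elavl1, and at 45.1 kb downstream of it, past the end of the gene. In lists of equal length this order was left in 1, the region 11.5 kb upstream.

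The promoters of the members were poorer in CpG and richer in kappaB and TATA letters than those of all genes. Over the 23 members in the promoter table the median was 4 CpG in 300 bases, against 7 over 27025 genes. It was 10 for the 8 with a peak within 1 kb of that start in any library and 3 for the 15 without. The kappaB consensus was found in 7 of 23 (30.4%, against 8.18% of all genes), at Ccl1, Ccl9, Ccl20, Cxcl1, Cxcl2, Cxcl3 and Cxcl10. Of these 7, 3 had a peak at that start, as had 8 of the 23. A TATA box was found in 8 of 23 (34.8%, against 14.2%), AP-1 letters in 4 (17.4%, against 7.93%), and an IRF pair in 3 (13.0%, against 3.49%). Cxcl10 was the only one of the 23 with kappaB, AP-1 and IRF letters together, at 159 and 104, 74 and 213 bases upstream of the start. The STAT6-type palindrome was found in 1 of 23 (4.35%, against 6.99%), at 154 bases upstream of Ccl17, and the control palindrome in 2 (8.70%, against 8.47%), at 99 bases upstream of Ccl17 and at Cxcl14.

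In the central 200 bases of the 112 regions, AP-1 letters were found in 27 (24.1%, against 12.9% of all regions) and kappaB in 13 (11.6%, against 6.17%). Among the 51 called in all libraries they were found in 10 (19.6%, against 10.7%) and 9 (17.6%, against 6.77%). The STAT6-type palindrome was in 4 of 112 (3.57%, against 5.84%) and the control in 8 (7.14%, against 8.47%). Matches are letters in a window and carry no measure of binding, and the overlap of kappaB with the control palindrome was not removed.

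A larger share of the receptors than of the ligands was listed, a difference given without a test. Of the 22 receptor genes, 16, 13, 15 and 14 had a promoter peak in iTreg+PBS replicates 1 and 2 and iTreg+IL-4 replicates 1 and 2, 12 were called in all libraries (54.5%, background 59.9%), and none in the libraries of a single group only. The shares of 72.7%, 59.1%, 68.2% and 63.6% lay near those of all protein-coding genes. The best by mean rank were Ccr7, the lymph node homing receptor, at 4.70 and 7.12 in iTreg+PBS and 5.05 and 5.45 in iTreg+IL-4, and Ccr4, at 11.8 and 18.2, and 10.8 and 13.4. They were followed by Cxcr5, the receptor of Cxcl13, at 9.19 and 17.6, and 14.4 and 14.0, and Cxcr4, that of Cxcl12, at 14.4 and 14.7, and 11 and 16.4. Ccl17 and Ccl22 on the one side and Ccr4 on the other thus differed in that the ligand promoters were listed in no library and that of the receptor in all. Both iTreg+IL-4 ranks were stronger than both iTreg+PBS ranks at 2 of these 12 receptors (16.7%, below the share of protein-coding promoters given above), named here after their values were seen. Ccr9, the receptor of Ccl25, ranked 60.3 and 64.5 without IL-4, and 48.1 and 47.4 with it, and Cxcr1 74.7 and 72.4, and 58.0 and 64.1.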

How the data were processed

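ATAC-seq libraries of iTreg+PBS and iTreg+IL-4 cultures were analysed, 2 in each group. The authors aligned the reads with Bowtie2 (version 2.2.5) and called peaks per library with MACS2 (version 2.1.2); the build is mm10 per the labels, and bedtools 2.16.2 is also named in the submitters' processing notes. The deposited peak lists give positions, a −log10 q value from the peak caller and a signal, read as the height of the pileup, as deposited by the authors without a header. The lowest −log10 q of each list corresponds to q = 0.05. No read totals are given, so the depth is unknown and heights were not compared between libraries.

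All 21 assembled chromosomes matched the reference and 0 peaks ran past an end. Overlapping peaks (at least 1 base) of the 4 libraries were merged into regions. Promoters were 1 kb on both sides of every GENCODE vM21 start, and windows the gene record with 20 kb on both sides. Calls and ranks were computed in Python 3.11.15 with pandas 2.3.3 and numpy 2.4.6, and single values were compared by the exact permutation test of scipy 1.17.1. Scripts were tested on simulated peak lists. The members, roles, receptors and markers were chosen with earlier results of these data known, and the TATA box and IRF motifs were added after values were seen. All 33 members are accounted for, and every member with a promoter peak is named. Of regions, those called in the libraries of 1 group only and the 5 strongest called in all libraries are named. Some of those at Ccl1, Ccl17, Ccl25 and Ccl28 are named too, chosen after their values were seen. Of receptors, the 4 best ranked are named, and Ccr9 and Cxcr1 after their values were seen. Alternatives were list length, window, start sites, ranking, leaving out each library and a replicate block. Some items of the marker and sequence sets are not reported here.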

Additional observations from a re-analysis of the deposited data

How the results depend on the processing

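Of 70 recomputed comparison values 17 moved by more than the pooled SD between libraries or, for counts, by more than 1.5 times, as did 7 of 105 values for named promoters by more than their SD. Among comparison values 6 changed sign, 4 of them on leaving out a library and 2 by more than the SD (the difference in member promoters, below). Of the values for named promoters 14 changed sign, all on leaving out a library. Neither Xcl1 nor Ccl28 changed sign, which on leaving out a library could not happen since their groups did not overlap. Ccl3, at 18.6 rank points, ranged from -3.74 to 41.0 with a library left out. With the upper 50% of each list, the difference in member promoters per library was -2, 1 promoter (Xcl1) was called only without IL-4, 0 regions were called only with IL-4 and 1 only without it. With lists of equal length (56645 peaks) the difference was again -2, and 0 regions were called only with IL-4. In these lists 6 members were called in all libraries, against 12791 protein-coding genes. Regions called only with IL-4 were 0 with 10 kb and 3 with 50 kb on both sides of the genes, and 0 where a peak had to cover 50% of the region, with 1 then called only without IL-4. The cause of these moves was not tested. The order of ranks over regions in lists of equal length was chosen after seeing the data.

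Leaving out each library, promoters called only with IL-4 ranged from 0 to 1, regions called only with IL-4 from 1 to 13, and those only without from 0 to 11. In these counts a single library stands for its group, which is a looser rule. The difference in bases ranged from -3518.5 to 12004.5 and the median rank difference of promoters from -2.97 to 10.7. With the replicate block, differences taken between same-numbered libraries had medians of 6.67 and 0.82 rank points (mean 3.75), against 3.21, and 0.5 promoters and 4243 bases as without it. The block was run for these 3 values. The labels do not say that a number marks a shared preparation; deviations of same-numbered libraries correlated at r = 0.45 across 47767 regions, given as a description.

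With 2 libraries a group no exact test can pass 0.05. Ranks depend on the length of each list, so a weak peak gets a lower percentage in a longer list that adds weaker peaks.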
